A study of Mus musculus with 12 samples.

Results

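Retinoic acid acts in a cell through a small set of genes that bind it, sense it and remove it, and 9 of them are described here: Crabp1, Crabp2, Rara, Rarb, Rarg, Cyp26a1, Cyp26b1, Dhrs3 and Stra6. They were chosen by name, for what they encode, from the 14664 genes that had at least 1 read in the series. Native RNA of P19 cells, a wild-type mouse embryonal carcinoma line, was sequenced on nanopores before differentiation (D0) and 2, 4 and 6 days into it (D2, D4 and D6), in 12 libraries, 3 biological replicates for each. D0 cells grew in medium with fetal bovine serum. The D2, D4 and D6 cells were seeded on coated plates in NDiff 227 medium with 500 nM retinoic acid, and the medium was changed daily, so the change of medium and the retinoic acid cannot be told apart. Every group is the same cell line, and all the signal of a library is that of its whole culture, in which fewer expressing cells and less RNA per cell cannot be told apart.

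As background, retinoic acid is made inside cells from retinol, which Stra6 can bring in as a membrane receptor for the retinol carrier, and which reaches retinoic acid through retinaldehyde. Dhrs3 reduces retinaldehyde back to retinol, and Cyp26a1 and Cyp26b1 are cytochrome P450 enzymes that oxidise retinoic acid for removal. Crabp1 and Crabp2 bind it in the cytosol, Crabp2 being known to carry it to the nucleus, where the receptors Rara, Rarb and Rarg pair with RXR proteins on DNA. Several genes of the pathway, Rarb and Cyp26a1 among the best known, are themselves switched on by these receptors.

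The receptor pairs bind direct repeats of a hexamer, and repeats with a spacer of 5 bases are their best known sites. Promoter windows, from 250 bases before to 50 bases after each start in RefSeq (build GRCm38.p6, the mm10 assembly), were searched on both strands for a hexamer followed, in the same direction and after a spacer of 5 bases, by another. Either hexamer could be AGGTCA or its close relative AGTTCA, and likewise GGGTCA or its close relative GGTTCA, in any combination. Of 32851 windows, 32 (0.0974%) held such a repeat, and the windows of Cyp26a1 and Rarb were among them. They are shown because they are the 2 of the 8 genes searched in which it was found. Capitals mark the repeat. In Rarb it reads as printed (GGTTCA, then AGTTCA) at bases -53 to -37 from the start, and in Cyp26a1 it is read on the other strand (AGTTCA, then AGTTCA) at bases -32 to -16.
Rarb, chr14:16575427-16575726, minus strand: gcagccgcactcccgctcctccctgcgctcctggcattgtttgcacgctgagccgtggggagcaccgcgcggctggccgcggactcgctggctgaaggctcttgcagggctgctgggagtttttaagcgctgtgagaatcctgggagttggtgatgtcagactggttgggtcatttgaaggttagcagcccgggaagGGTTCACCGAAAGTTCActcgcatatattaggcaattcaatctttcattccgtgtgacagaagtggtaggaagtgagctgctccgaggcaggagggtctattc
Cyp26a1, chr19:37697558-37697857, plus strand: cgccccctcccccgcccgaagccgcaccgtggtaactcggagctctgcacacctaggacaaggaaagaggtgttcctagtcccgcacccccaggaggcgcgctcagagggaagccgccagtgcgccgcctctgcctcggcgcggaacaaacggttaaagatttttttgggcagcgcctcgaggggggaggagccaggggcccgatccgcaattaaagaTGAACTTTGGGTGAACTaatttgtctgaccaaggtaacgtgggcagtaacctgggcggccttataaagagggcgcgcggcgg
Windows were found for 8 of the 9 genes, with none for Crabp2, and several genes had more than 1 start. Repeats with a spacer of 1 or 2 bases were in none of these windows, and in 0.222% and 0.268% of all windows. A match is a likeness in letters, not a measured site, and the windows do not reach sites farther from a start.

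Libraries held 130162 to 642548 mRNA reads of passing quality, 4625696 in all, and D2 was the shallowest day (130162 to 257197 reads). Each of the 13 sequencing runs held 1 day only, so day and run cannot be told apart. The run names of D0 also carry the mark D2, and libraries were grouped by the sample labels. Pou5f1, which marks undifferentiated cells, had 2473 reads at D0 and 4, 0 and 1 at D2, D4 and D6, and all 5 tested genes of 8 such markers were lower on each later day. Summed neural markers (10 genes, all with reads) stood at 555 to 567 CPM (reads of a gene scaled to a common library size, as throughout) at D0, 505 to 784 at D2, 1412 to 1643 at D4 and 2467 to 2660 at D6. At D2, which overlapped with D0, 4 of the 10 were called higher and 2 lower, the neuronal genes Tubb3 and Stmn2. Summed endoderm markers (6 of 9 genes with reads) ranged from 270 to 292 at D0 and from 77.3 to 175 afterwards, and Sox17, Gata4 and Afp had no read. Most of the sum at D0 was Sparc, with means of 207, 14.4, 48.4 and 119 CPM from D0 through D6. Col4a1 had 40.4 at D0 and 54.6 at D2, so the sum is mainly the course of Sparc. Summed mesoderm and muscle markers (6 of 9 with reads) ranged from 28.5 to 33.5 at D0 and were at most 14.9 afterwards, with no read of T, Mesp1 or Myog. Glial markers (2 of 4 with reads) reached at most 3.68 in any library, with no read of S100b or Aqp4. Their part in the results below was not tested.

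The 9 genes took 0.00720%, 0.0118% and 0.0113% of the reads in the 3 D0 libraries. At D2 they took 0.403%, 0.350% and 0.345%, at D4 0.211%, 0.211% and 0.207%, and at D6 0.141%, 0.131% and 0.157%. The groups of libraries did not overlap between any of the 4 days. This pooled course was that of 2 genes, since Crabp1 and Crabp2 gave 2021 of the 2111 reads at D2. The other 7 genes had 57, 90, 399 and 943 reads from D0 through D6, and their share of a library was highest at D6 (0.0701% to 0.0995%, against 0.0105% to 0.0179% at D2).

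All 9 genes had reads, and 8 reached the limit of 30 reads over the 12 libraries that was set for testing; Rarg, with 15 reads, did not. One of the 8, Stra6, would have stayed under the limit without its highest day. Differences between days were fitted with limma-voom on all 9355 genes that reached the limit, and a gene was called at a Benjamini-Hochberg adjusted p of at most 0.05. At D2 against D0, 6 of the 8 genes were higher and none was lower, where 4.72% of all genes were called higher and 6.06% lower. With all libraries thinned to the smallest, 3 of the 6 calls at D2 remained, those of Crabp1, Crabp2 and Rarb. In a fit of D0 and D2 alone, 5 of the genes reached the limit of 30 reads and 4 were called, as were 892 of all 7000 genes tested. At D4 against D0, 6 were higher and none lower, against 12.9% and 12.5% of all genes. At D6 against D0, 7 were higher and none lower, against 19.4% and 18.1%. The median log2 fold change of the 8 was 3.29, 4.05 and 5.04 on the 3 days (2.76 at D2 with Cyp26b1, unseen at D0, at its lower bound), where the median over all genes was -0.04, 0.01 and 0.02. Between D2 and D4, 1 of the 8 rose (background 2.15%) and 2 fell (background 1.1%). Between D4 and D6, 3 rose (background 4.24%) and 2 fell (background 4.04%).

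**Figure D1:**
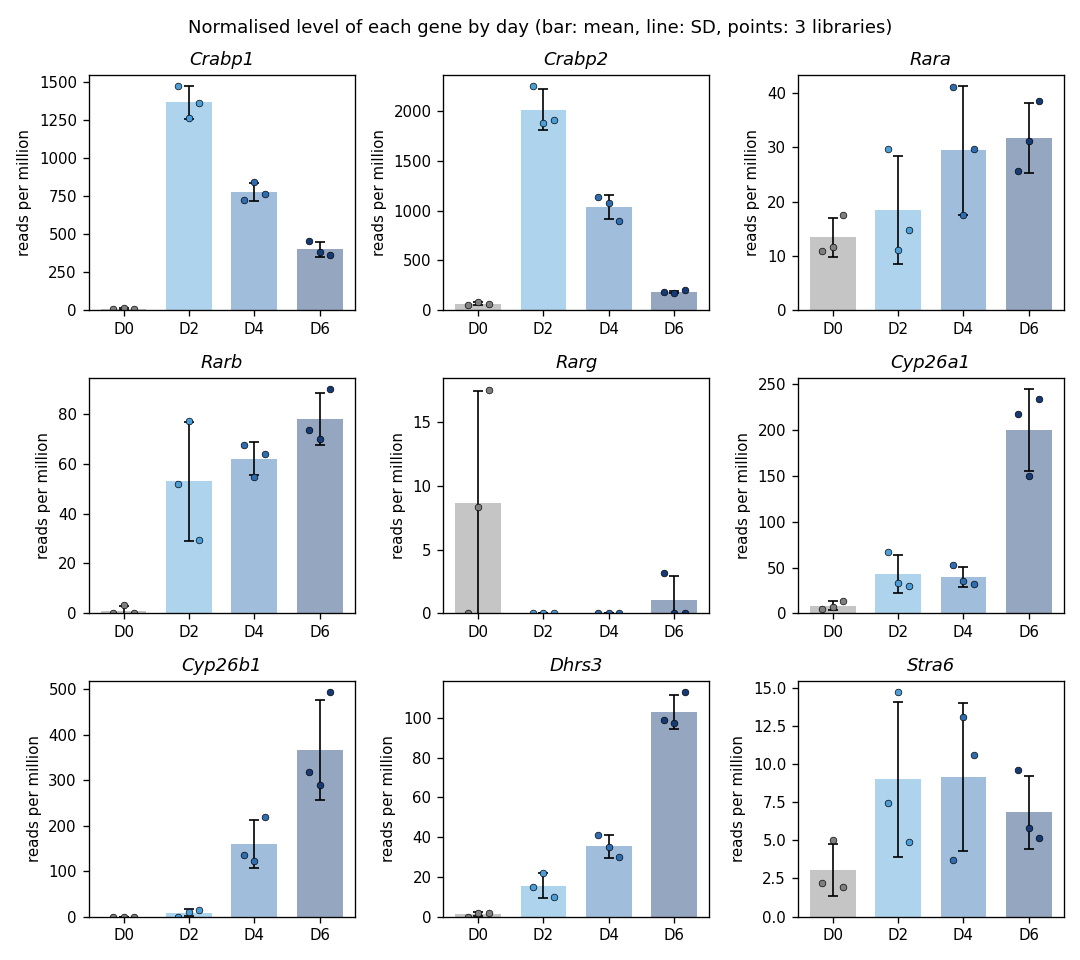
Normalised level of each gene in CPM (vertical axis, linear and separate for each panel) at D0, D2, D4 and D6, with points for the 3 libraries, bars for their mean and lines for the SD. Crabp1 and Crabp2 peak at D2 with means of 1364 and 2013, Cyp26a1, Cyp26b1 and Dhrs3 are highest at D6, and Rarg has reads at D0 and 1 read at D6.

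The cytosolic binding proteins rose steeply by D2 and then receded. Crabp1 (mm10 chromosome 9, 54764748 to 54773110, plus strand) had 2, 7 and 3 reads in the D0 libraries, 198, 342 and 278 at D2, 193, 384 and 360 at D4, and 142, 196 and 140 at D6. Scaled by library, these were 4.39, 11.7 and 5.84 CPM at D0, 1472, 1258 and 1363 at D2, 723, 840 and 765 at D4, and 454, 382 and 359 at D6. No library of one day overlapped with a library of another. The level was 168-fold higher at D2 than at D0 (log2 fold change 7.39 ± 0.42 SE, adjusted p = 1.7e-20 by limma-voom). It then fell by 0.79 ± 0.11 on the log2 scale from D2 to D4 and by 0.98 ± 0.11 from D4 to D6 (adjusted p = 2.9e-07 and 7.2e-09, limma-voom). At D6 it was still 49.2-fold above D0 (adjusted p = 2.6e-16, limma-voom). D0 rests on 12 reads in all, and the exact 95% counting interval of the pooled D2 to D0 ratio ran from 99.6 to 340.0.

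Crabp2 (chromosome 3, 87948666 to 87953376, plus strand) was already present before differentiation, with 24, 47 and 32 reads at D0. It had 303, 511 and 389 reads at D2, 304, 491 and 423 at D4, and 57, 91 and 77 at D6. Its level was 64.6 ± 13.2, 2013 ± 208, 1037 ± 124 and 186 ± 10.6 CPM from D0 through D6 (mean ± SD of 3 libraries each). The 4 days did not overlap, and the order was D2, D4, D6 and D0. Crabp2 was 30.2-fold higher at D2 than at D0 (limma-voom log2 fold change 4.92 ± 0.17, adjusted p = 4.5e-29). It fell by 0.96 ± 0.10 on the log2 scale to D4 and by 2.46 ± 0.13 from D4 to D6 (adjusted p = 2.1e-10 and 1.5e-20, limma-voom), which left it 2.84-fold above D0 (adjusted p = 1.1e-08, limma-voom).

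The make-up of the Crabp2 and Crabp1 pair shifted toward Crabp1. Within each library, a measure that does not depend on depth or scaling, Crabp2 gave 92.3%, 87.0% and 91.4% of the reads of the pair at D0. It gave 60.5%, 59.9% and 58.3% at D2, 61.2%, 56.1% and 54.0% at D4, and 28.6%, 31.7% and 35.5% at D6. The D0 libraries were all above the D2 ones and the D4 libraries all above the D6 ones, while D2 and D4 overlapped. The exact two-sided permutation test over 3 against 3 libraries gave p = 0.1, the smallest it can give, for D2 against D0 and for D6 against D4, and p = 0.4 for D4 against D2. Both transcripts are short (802 and 931 nt), and 84.1% of the Crabp1 reads and 84.8% of the Crabp2 reads began within the first 100 nt of the annotated transcript, so most reads spanned nearly the whole mRNA.

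The receptors were low and each followed its own course. Rarb, whose promoter window holds the repeat above, went from 0, 2 and 0 reads at D0 to 7, 21 and 6 at D2, 18, 25 and 30 at D4 and 23, 36 and 35 at D6. In CPM this was 1.12 ± 1.93, 52.9 ± 23.9, 61.9 ± 6.56 and 77.8 ± 10.5 from D0 through D6 (mean ± SD of 3 libraries each). Every library from D2 on was above every D0 library, and the treated days overlapped with each other except D4 and D6. The log2 fold change against D0 was 5.03 ± 0.69, then 5.24 ± 0.67 (D4) and 5.57 ± 0.66 (D6) (adjusted p = 2.2e-07, 1.1e-08 and 1.0e-09, limma-voom). These sizes depend on the pseudocount and on depth: they were 3.67, 3.77 and 4.08 with a pseudocount of 2 reads and 3.94, 4.14 and 4.27 thinned, all called. With 2 reads at D0, the pooled D6 to D0 ratio of 60.6 had an exact counting interval from 16.3 to 507. Differences between successive treated days were 0.21 ± 0.32 and 0.33 ± 0.24 on the log2 scale and did not pass the test (adjusted p = 0.82 and 0.45, limma-voom).

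Rarb spans 388318 bases of chromosome 14 (16430839 to 16819156, minus strand) and has several promoters. Of its 203 reads, 193 were assigned to the transcript ENSMUST00000063750.7 (chromosome 14, 16430839 to 16575543), whose start lies in the window printed above. Reads begin at the 3′ end of the RNA and many stop before the 5′ end, and 21 of the 203 (10.3%) reached within 100 nt of the RefSeq start, while 1 began more than 100 nt before it. The 193 reads on the main transcript could not begin that far before it, since that transcript begins at 16575543 and the RefSeq start is 16575476. Most reads (177) ended at or near the annotated end of the gene, 16430839. Another 10 ended around 16574858, 618 nt after the RefSeq start, with a median tail of 137 nt (range 32.5 to 268 nt); none of these 10 had a mapping quality of 10 or more. Top2b and the antisense gene Gm48162 overlap the Rarb locus on the opposite strand. Reads were tallied by the gene given in the deposited table, and no filter on strand was applied here.

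Rara (chromosome 11, 98927818 to 98974942, plus strand) had the smallest fitted change at D6 among the 7 genes called. It had 5, 7 and 9 reads at D0, 4, 3 and 3 at D2, 11, 8 and 14 at D4, and 8, 16 and 15 at D6. The level was 13.4 ± 3.59, 18.5 ± 9.91, 29.5 ± 11.9 and 31.7 ± 6.47 CPM from D0 through D6 (mean ± SD of 3 libraries each), and only D6 did not overlap with D0. It rose 2.34-fold from D0 to D6 (log2 fold change 1.23 ± 0.39, adjusted p = 0.010, limma-voom), and this call was lost without D0 replicate 2 (adjusted p = 0.058) or with all libraries thinned to the smallest (adjusted p = 0.20, both by limma-voom). The values at D2 and D4 against D0 were 0.34 ± 0.52 and 0.96 ± 0.40 (adjusted p = 0.75 and 0.070, limma-voom), and at D4 the gene was called without D4 replicate 2 (1.29, adjusted p = 0.019), with reads of every quality tag (1.03, adjusted p = 0.022) and with a pseudocount of 2 reads (0.89, adjusted p = 0.044, all by limma-voom). Its reads used 2 ends, 57 at 98974162 and 43 about 777 nt farther on at 98974939, and the nearer end held 12, 5, 19 and 21 reads at D0, D2, D4 and D6 against 8, 4, 13 and 18 for the farther one. Median tails were 133 and 131 nt at the 2 ends.

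Rarb and Rara were also compared within each library. Rarb gave 0%, 22.2% and 0% of the reads of this pair at D0 and 63.6%, 87.5% and 66.7% at D2. It stayed between 62.1% and 75.8% in the D4 and D6 libraries. D0 stood apart from D2 (exact permutation p = 0.1, the smallest possible), and later days overlapped (p = 0.7 and 0.6 for successive days by the same exact test).

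Rarg (chromosome 15, 102234938 to 102257517, minus strand), the receptor known for its place in early embryonic cells, went the other way in the few reads it had. It had 0, 5 and 9 reads at D0, none in any of the 6 libraries of D2 and D4, and 1, 0 and 0 at D6. Pooled over the libraries, D2 was at least 1.82-fold and D4 at least 3.56-fold lower than D0, taking 3 reads per day as the floor, and the D6 to D0 ratio was 0.092 with an exact counting interval from 0.0022 to 0.60. Since D0 replicate 1 also had no read, the days overlapped, and the exact two-sided permutation test gave p = 0.4 for each day against D0, where 0.1 is the smallest possible. With a limit of 1 read in place of 30, limma-voom called Rarg lower at D4 against D0 (log2 fold change -2.19 ± 0.69, adjusted p = 0.019) but not at D2 or D6 (adjusted p = 0.26 and 0.088). These fitted values depend on the pseudocount.

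**Figure D2:**
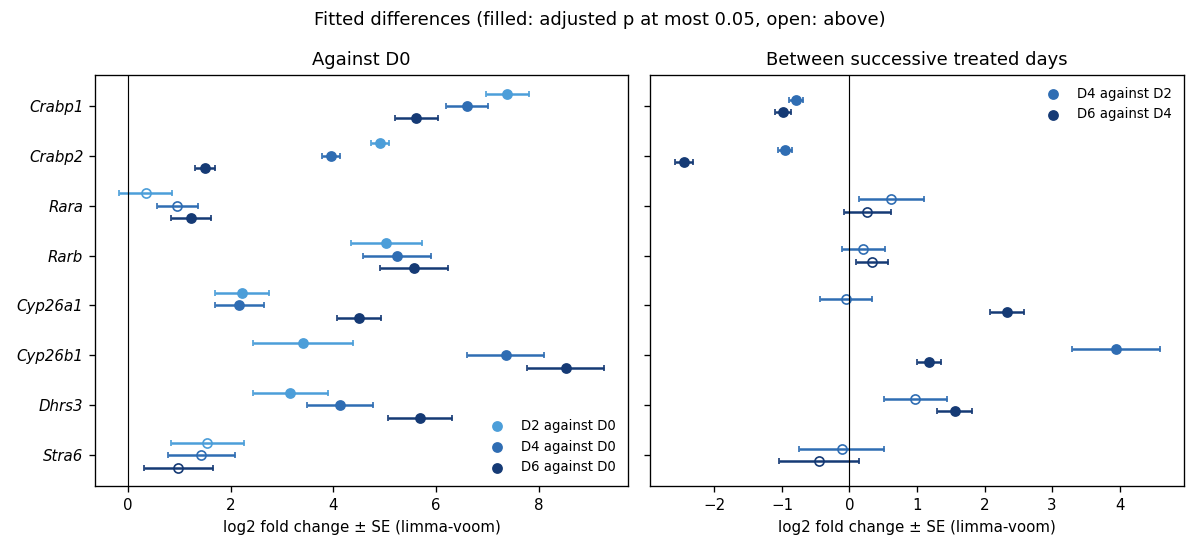
Fitted log2 fold changes with their SE (horizontal axis) for the 8 genes tested, against D0 on the left and between successive treated days on the right. Filled points have an adjusted p of at most 0.05; Crabp1 and Crabp2 lie right of 0 against D0 and left of 0 between treated days, and the point of Cyp26b1 against D0 depends on the pseudocount because D0 had 0 reads.

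The enzymes that remove retinoic acid were highest at D6, where both stood above every earlier library. Cyp26a1 (chromosome 19, 37697798 to 37701536, plus strand) had 2, 4 and 7 reads at D0, 9, 9 and 6 at D2, 14, 16 and 15 at D4, and 68, 77 and 91 at D6. This made 8.24 ± 4.81, 43.1 ± 20.7, 39.8 ± 11.1 and 200.3 ± 44.4 CPM from D0 through D6 (mean ± SD of 3 libraries each). D2 and D4 overlapped, and D0 lay below and D6 above all other libraries. The course had 2 steps, with a rise by D2 (log2 fold change 2.22 ± 0.52, adjusted p = 0.0019), a difference of -0.05 ± 0.38 between D2 and D4 (adjusted p = 0.97), and a rise of 2.34 ± 0.26 from D4 to D6 (adjusted p = 1.8e-09, all by limma-voom). With all libraries thinned to the smallest, the values at D2 and D4 against D0 were 1.47 and 1.79 and were not called (adjusted p = 0.36 and 0.15, limma-voom). At D6 the gene was 22.7-fold above D0 (adjusted p = 2.2e-12, limma-voom). Of its 318 reads, 141 (44.3%) began within 100 nt of the RefSeq start of the window printed above. All 318 were aligned to a transcript that begins at 37697798, and the RefSeq start is 37697808. No read could therefore begin more than 100 nt before that start.

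Cyp26b1 (chromosome 6, 84571414 to 84593908, minus strand) was not seen at D0, where 0 of 472441, 642548 and 546991 reads allow at most 0.000635%, 0.000467% and 0.000548% of a library. It had 0, 3 and 3 reads at D2, 36, 56 and 103 at D4, and 99, 149 and 192 at D6. In CPM this was 0, 11 and 14.7 at D2, 135, 122 and 219 at D4, and 317, 290 and 493 at D6, and D4 and D6 did not overlap with each other or with earlier days. Against a floor of 3 reads pooled over D0, it was at least 5.13-fold higher at D2, at least 85.2-fold at D4 and at least 189-fold at D6. The calls at D4 and D6 had adjusted p = 3.0e-11 and 1.1e-13 by limma-voom. The call at D2 rests on 6 reads (adjusted p = 0.014, limma-voom) and was lost without D0 replicate 2, D2 replicate 2 or D2 replicate 3 (adjusted p = 0.066, 0.086 and 0.096, limma-voom). The rise from D4 to D6 was 2.25-fold (log2 fold change 1.17 ± 0.18, adjusted p = 2.9e-06, limma-voom), and with limma-trend in place of voom it was not called (adjusted p = 0.15).

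Almost all Cyp26b1 reads, 636 of 641, were assigned to ENSMUST00000205228.2 (4288 nt), and 628 ended at the annotated 3′ end. The first aligned base lay at a median of 3143 nt into it, so the reads show the 3′ part of the mRNA and not which promoter was used. In the Cyp26a1 and Cyp26b1 pair, Cyp26a1 gave every read at D0, 100%, 75% and 66.7% at D2, 28%, 22.2% and 12.7% at D4, and 40.7%, 34.1% and 32.2% at D6. The shares of D4 stood below those of D2 and of D6 in every library (exact permutation p = 0.1 in each case, the smallest possible). These shares were compared between days only, because the 2 transcripts differ in length.

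Dhrs3 (chromosome 4, 144892827 to 144928209, plus strand), which turns retinaldehyde back to retinol, was higher than D0 on every later day. It had 0, 1 and 1 reads at D0, 2, 6 and 2 at D2, 11, 16 and 14 at D4, and 31, 50 and 44 at D6. The level was 1.21 ± 1.05, 15.6 ± 6.17, 35.3 ± 5.72 and 103 ± 8.51 CPM on the 4 days (mean ± SD, n = 3), and no 2 days overlapped. The log2 fold change against D0 was 3.16 ± 0.73, then 4.13 ± 0.64 (D4) and 5.69 ± 0.62 (D6) (adjusted p = 0.0017, 1.0e-06 and 7.3e-11, limma-voom). With reads of mapping quality 10 or more these values were 2.31, 2.72 and 4.80, and D2 was not called (adjusted p = 0.089, limma-voom). With a pseudocount of 2 reads they were 2.35, 2.96 and 4.41, all called, and thinned they were 1.5, 2.72 and 4.27, with D2 not called (adjusted p = 0.43, limma-voom). The step from D2 to D4 did not pass the test (0.97 ± 0.47, adjusted p = 0.29) and the step from D4 to D6 did (1.56 ± 0.26, adjusted p = 1.4e-05, both by limma-voom), the latter not with limma-trend (adjusted p = 0.059). With 2 reads at D0, the pooled D6 to D0 ratio of 80.5 had an exact counting interval from 21.8 to 672. Its reads fell on 4 annotated transcripts, among them 25 on ENSMUST00000084184.6, which is annotated as a target of nonsense-mediated decay, and nearly all (175 of 178) shared 1 end near 144927642. Reads were aligned to transcripts, and a read that fits several transcripts of the same gene can have a low mapping quality.

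Stra6 (chromosome 9, 58063788 to 58153996, plus strand) was at the edge of what this depth can show. It had 1, 3 and 1 reads at D0, 1, 4 and 1 at D2, 1, 6 and 5 at D4, and 3, 3 and 2 at D6. Means ran from 3.05 ± 1.71 CPM at D0 to 9.16 ± 4.86 at D4 (SD, n = 3), and D0 overlapped with D2 and D4 but not with D6. The log2 fold changes against D0 were 1.55 ± 0.71, 1.43 ± 0.65 and 0.97 ± 0.67 (adjusted p = 0.17, 0.10 and 0.26, limma-voom). With a pseudocount of 2 reads it was called at D2 and D4 (1.49 and 1.08, adjusted p = 0.0091 and 0.043, limma-voom), where the median of all genes was 0.20 and 0.06. The exact 95% counting interval of the pooled D6 to D0 ratio, 0.59 to 8.01, spans no change, as does that of D2 to D0, 0.78 to 12.8. That of D4 to D0, 1.03 to 11.4 around a ratio of 3.15, lies just above no change. None of the 31 Stra6 reads had a mapping quality of 10 or more. They fell on several transcripts of the gene, so this score does not by itself put the gene in doubt.

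**Figure D3:**
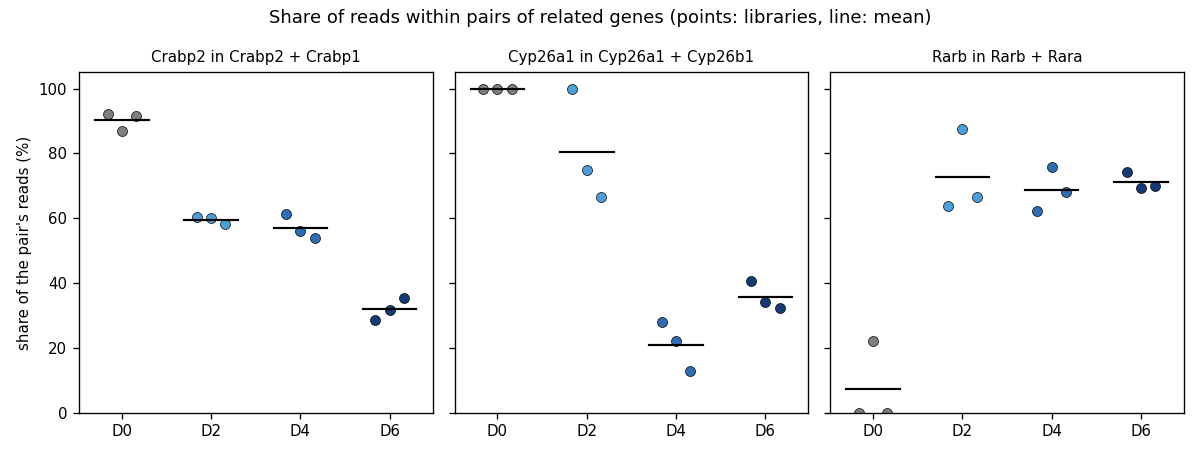
Share of the first gene in the reads of 3 gene pairs (vertical axis, percent) in each library at D0, D2, D4 and D6, with a line for the mean. Crabp2 goes from a mean of 90.3% of its pair at D0 to 31.9% at D6, Rarb from 7.41% to 71.1%, and Cyp26a1 is lowest at D4 with 21.0%.

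Other genes of the pathway were read from lists written from general knowledge. Among 32 genes for retinoid supply (carriers, dehydrogenases and storage enzymes), 21 had reads and 9 could be tested. At D2 and at D4 against D0, 1 was called higher and 1 lower, with medians of -0.19 and -0.11 on the log2 scale. At D6, 1 was higher and 2 lower, with a median of 0.01 (0.02 over all genes). Beside 4.72%, 12.9% and 19.4% of all genes higher and 6.06%, 12.5% and 18.1% lower at D2, D4 and D6, nothing is read from these counts about the list. Fabp5, a fatty acid carrier that also binds retinoic acid, fell from 2211 ± 169 CPM at D0 to 527 ± 28.6 at D2 and stood at 956 ± 59.0 at D6 (log2 fold change -1.22 ± 0.09 at D6). Adh5, an alcohol dehydrogenase, was lower at D6 by -0.46 ± 0.14 (adjusted p = 0.0089, limma-voom). The retinaldehyde dehydrogenases Aldh1a1, Aldh1a2 and Aldh1a3, which make retinoic acid, had 1, 3 and 0 reads in all 12 libraries, and Cyp26c1, the other member of the Cyp26 family, had 4.

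Among 20 RXR and coregulator genes, 17 could be tested. At D2, D4 and D6 against D0, 1, 1 and 3 were higher and 0, 2 and 2 lower, with medians of -0.12, 0.08 and 0.11 on the log2 scale. These too are small counts beside the same background, and nothing is read from them about the list. Rxra, the partner of the retinoic acid receptors, was the gene called higher on all 3 days, from 11.9 ± 7.55 CPM at D0 to 37.7 ± 7.33, 44.2 ± 10.8 and 30.7 ± 8.06 (mean ± SD, n = 3). Ncoa3, a coactivator, and Trim24, a chromatin reader that binds nuclear receptors, were higher at D6 (log2 fold change 1.53 ± 0.49 and 1.09 ± 0.30). Ppard, a nuclear receptor for fatty acids, fell from 22.3 ± 6.79 CPM at D0 to 0 in every D6 library, and Tbl1xr1, a corepressor subunit, was lower at D6 (-1.21 ± 0.49, adjusted p = 0.045, limma-voom). Med1, a Mediator subunit, and Ppard were the 2 genes lower at D4.

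Among 15 response genes, most of them homeobox factors known to follow retinoic acid, 7 could be tested and 6, 7 and 7 were higher at D2, D4 and D6, with none lower, where 4.72%, 12.9% and 19.4% of all genes were higher. Of the 8 genes with too few reads to test, Tgm2, a transglutaminase, had 12, 2, 1 and 0 reads from D0 through D6, Bhlhe40, a repressor, had 14, 3, 6 and 3, and the rest had at most 8 on any day. The median log2 fold change of the 7 tested genes was 4.58, 5.32 and 4.64 (4.01, 4.30 and 4.63 with genes unseen at D0 at their lower bound). Hoxb4, a Hox gene of the hindbrain and neck, stood at 148 ± 51.9, 103 ± 17.1 and 143 ± 35.9 on the treated days, from 0.558 ± 0.967 at D0. Hoxd4, with no read at D0, reached 38.2 ± 3.01 at D6, and Tshz1, a zinc finger factor with no read at D0, reached 86.6 ± 11.7. The lists share no gene with the 9 but rest on the same libraries.

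The genes whose courses were most alike over the 12 libraries were found among 7465 genes averaging 5 or more reads in a library, by Pearson's r of log2 levels. The libraries of a day share runs, so r is a description only. For Crabp1 these included Irx3 (r = 0.984) and Selenoh (0.975). For Crabp2 they were Mdk, the retinoic acid inducible growth factor midkine (0.979), Metrn (0.970) and Sfrp2 (0.954). For Rarb they included Rfx4 (0.987) and Hes5 (0.984), transcription factors of neural progenitors. Dhrs3 was nearest to Fabp7 (0.990), a fatty acid carrier of radial glia and progenitors, then Mthfd2l (0.979) and Zfp422 (0.973). Cyp26b1 was nearest to Ina (0.976), a neuronal intermediate filament, then Smarce1 and Fdft1 (0.969 each), and Cyp26a1 to Dstn (0.967), Sept5 (0.966) and Vps4a (0.957). Rara and Stra6, whose values rest on few reads, reached at most 0.918 (Gm28438, then Ank2 and Ankrd13b) and 0.890 (Vcan, then Ccl25 and Srsf7).

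In direct RNA sequencing each read also gives the length of its poly(A) tail, a stretch of adenosines at the mRNA's 3′ end. Tails of Crabp1 were long at D2, where the 3 library medians were 135, 129 and 132 nt and 96.5% of 1848 genes with at least 10 reads in each D2 library had shorter ones. The medians were 114, 118 and 113 nt at D4 and 122, 125 and 125 nt at D6, without overlap between the days; of all genes tested, 7.59% also had D4 medians wholly below those of D2. The share of Crabp1 tails of 30 to 90 nt went from 14.7% ± 0.986 at D2 to 25.8% ± 3.54 (D4) and 23.2% ± 2.57 (D6), as mean ± SD of 3 libraries each. Tails under 30 nt stayed rare, at most 0.534% of the reads pooled over D2, D4 or D6.

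For the test of tails, limma was run on the log2 median length of all genes with at least 10 reads in each library of the days compared. Crabp2 was the only one of the 9 with enough reads at D0, and it was not called at D2, D4 or D6 (changes of -0.02 ± 0.09, -0.03 ± 0.09 and -0.07 ± 0.12 on the log2 scale, limma adjusted p = 0.94, 0.95 and 0.83). Of all genes tested, 0%, 0.738% and 2.4% were called on these days in either direction, and the 25 and 85 genes called at D4 and D6 became 0 and 2 to 38 when 1 library was left out. Its library medians lay between 94.9 and 114 nt on every day, so that the 30.2-fold rise in level at D2 went with a difference in tail of -0.123 nt between the means of library medians (106 ± 3.64 nt at D2 and 106 ± 6.88 nt at D0, SD, n = 3; exact permutation p = 0.9).

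Between successive treated days, 2 of the 9 genes had enough reads for D4 against D2 and 6 for D6 against D4, and none was called by limma, as was no other gene (0% and 0%). At an unadjusted p under 0.05, Crabp1 at D4 against D2 was the 1 member below that level (log2 change -0.20 ± 0.06, limma unadjusted p = 0.0064, adjusted p = 0.59), and no member was at D6 against D4. Cyp26a1 medians were 116, 139 and 90.8 nt at D4 and 140, 140 and 141 nt at D6 (limma adjusted p = 0.66). Cyp26b1 medians were 113, 127 and 128 nt at D4 and 138, 137 and 138 nt at D6 (limma adjusted p = 0.66). With Crabp1, these made 3 of 6 genes whose D6 libraries all lay above the D4 libraries (exact permutation p = 0.1 each, the smallest possible), as did 10.6% of the 3277 genes tested. The median log2 change of all these genes was 0.05. Rarb at D6 (104, 103 and 115 nt) and Dhrs3 at D6 (151, 141 and 151 nt) overlapped with D4 (143, 101 and 127 nt, and 161, 101 and 171 nt). The share of Rarb tails of 30 to 90 nt was 22.7% ± 5.70 at D4 and 31.7% ± 1.47 at D6 (SD, n = 3; exact permutation p = 0.1, the smallest possible), and limma on this share did not call it (adjusted p = 0.78). At D6, the Dhrs3, Cyp26a1 and Cyp26b1 tails were longer than those of 94.5%, 89.8% and 88.1% of the 4139 genes measured in that day's libraries, and Crabp2 tails were longer than those of 25.2%.

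**Figure D4:**
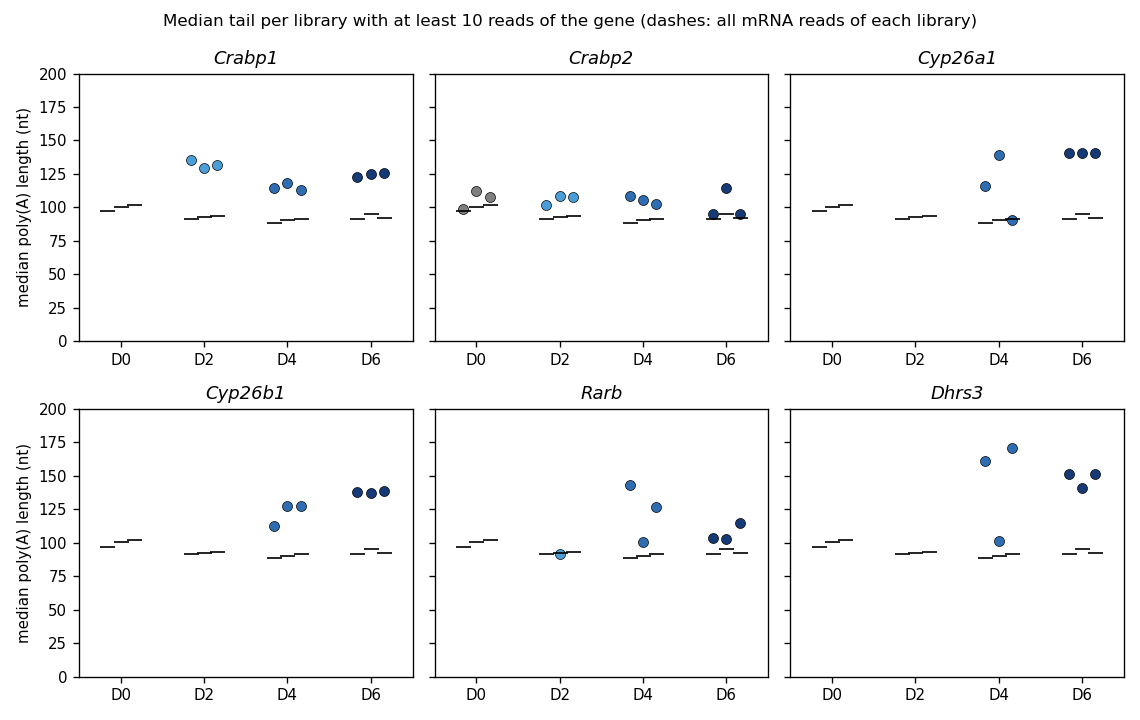
Median poly(A) length in nt (vertical axis) of 6 of the genes in each library with at least 10 of their reads, by day, with dashes for the median of all mRNA reads of each library. Crabp1 goes from 129 to 135 nt at D2 to 113 to 118 nt at D4, above the 88.3 to 102 nt of all reads, and Crabp2 stays between 94.9 and 114 nt.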

How the data were processed

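Direct RNA reads of 12 P19 libraries (4 days, 3 biological replicates each) were analysed. The authors called bases with Guppy, aligned with Minimap2 (2.20 in the submitters' processing notes) to mm10 transcripts, took tail lengths from Nanopolish and separated the pooled samples by barcode with Deeplexicon. Their deposited table has 1 line per alignment: tail length in nt, the aligner's mapping quality as a score, and barcode confidence as a fraction. It has no count column, so reads were tallied here, per gene and library, from lines of quality tag PASS and class mRNA. A second deposited table holds the authors' DESeq2 log2 fold changes and adjusted p-values against D0 and was not used.

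Tallies were scaled by the trimmed mean of M-values (30% and 5% trimmed) to CPM and fitted with limma-voom (limma 3.58.1, R 4.3.3), pseudocount 0.5 reads, on all 12 libraries. The fit has 8 residual degrees of freedom per gene and 43.3 prior ones, so p-values rest mostly on the spread shared over genes. Fold changes against a day with no read are bounds against 3 reads pooled over the day. Tails were tested with limma on log2 library medians, weighted by reads (at most 100). The comparisons of tails between treated days were added after seeing the data. Intervals and floors cover counting error only. Tables were made with Python 3.11.15. Positions are those of GENCODE on mm10. Promoter sequences are from RefSeq.

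The 9 genes and the lists were chosen with earlier results of these data known. Named genes were the 9, the 3 genes most alike in course to each tested one, up to 4 genes per list with the largest absolute fold change at D6 among those called, and genes beside a count of 5 or fewer. Some genes that this rule names are not reported here. Aldh1a1, Aldh1a2, Aldh1a3 and Cyp26c1 were named after their values were seen. Alternatives were other pseudocounts, read limits, read classes, quality tags and mapping qualities, library totals in place of trimmed means, limma-trend, thinning to the smallest library, a replicate block, fits of only the 2 days compared and leaving out each library. The fits were tested on simulated data.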

Additional observations from a re-analysis of the deposited data

Results flagged for a closer look

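Reads whose barcode could not be assigned belong to no library and entered no comparison. They are singled out because they held several of the 9 genes above the level of the unassigned reads of the D0 runs. There were 54871 unassigned mRNA reads in the D0 runs, 20392 in the D2 runs, 39075 in the D4 runs and 49595 in the D6 runs, and 211 of them came from the 9 genes. Crabp1, the cytosolic binding protein, had 34 unassigned reads in the D2 runs, 37 in the D4 runs and 23 in the D6 runs, against 1 in the D0 runs. Crabp2, its relative, had 29, 32 and 7, against 2. Cyp26b1, which removes retinoic acid, had 5 in the D4 runs and 11 in the D6 runs, against 0. Cyp26a1 had 5 in the D6 runs, against 2 in the D0 runs. The receptors Rara and Rarb had 4 and 5 in the D6 runs, against 0 each. Rarg went the other way, with 3 unassigned reads in the D0 runs and 0 later. The share of the 9 genes among unassigned reads was 0.0164%, 0.314%, 0.207% and 0.115% from D0 through D6. It was near that of the assigned libraries (0.00720% to 0.0118%, 0.345% to 0.403%, 0.207% to 0.211% and 0.131% to 0.157%). The unassigned reads came from the same runs as the libraries of their day, so this likeness is not independent support for the course.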

How the results depend on the processing

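Depth limits Rarg, Stra6, Rara and every D0 value of Rarb, Dhrs3 and Cyp26b1, and D2 is the shallowest day. With all libraries thinned to the smallest, 7 of the genes could be tested. Of these, 3 were called at D2 against D0 in place of 6 (Cyp26a1, Cyp26b1 and Dhrs3 were lost), 5 at D4 in place of 6 (Cyp26a1 was lost, adjusted p = 0.15, limma-voom) and 6 at D6 in place of 7 (Rara was lost, adjusted p = 0.20, limma-voom). The counts over all genes in the 5 comparisons (D2, D4 and D6 against D0, D4 against D2, D6 against D4) were 317, 648, 1178, 124 and 183, from 1009, 2384, 3512, 304 and 775. With limma-trend, 3 of the 8 were called at D6 against D4 in place of 5, and all genes called at D4 against D2 and D6 against D4 were 457 and 417. With reads of mapping quality 10 or more, all genes called at D2 and D6 against D0 and at D6 against D4 were 600, 2181 and 391, and Rara and Stra6 could not be fitted. This limit can also drop reads that fit several transcripts of the same gene. Cyp26b1 and Dhrs3 at D2 were then not called (adjusted p = 0.068 and 0.089, limma-voom), and the Dhrs3 log2 fold changes against D0 were 2.31, 2.72 and 4.80. At D2 against D0, a limit of 1 read gave 1697 genes and a pseudocount of 2 reads 1577. With that pseudocount 7 of the 8 genes were called at D2, with Stra6 gained, and 8 at D4, with Stra6 and Rara gained. With the limit of 1 read Rarg could be fitted, and it was called lower at D4 against D0.

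Leaving out 1 library at a time, 7 or 8 of the 9 genes could be tested. Of these, 5 to 6, 6 to 7, 6 to 7, 3 and 5 were called in the 5 comparisons. Over all genes, 683 to 903, 1832 to 2082, 2806 to 3200, 173 to 296 and 453 to 735 were called. The count fell to 173 without D2 replicate 2, to 453 without D4 replicate 2 and to 501 without D6 replicate 2. No tail was called among the 9 genes in any of these fits. Over all genes, the 25 tails called at D4 against D0 became 0 without any 1 library, with no weights or with the block, and the 85 at D6 became 2 to 38, 0 and 12. Scaling by library totals moved the median of all genes by 0.14, 0.06, 0.15, -0.08 and 0.10 (log2), and gave 633 higher and 387 lower at D2, 1349 and 1026 at D4, 2276 and 1330 at D6, 172 and 155 at D4 against D2, and 520 and 271 at D6 against D4. The calls of the 9 genes kept their direction.

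With a replicate block, 6, 6, 7, 3 and 5 of the 8 genes were called, no tail of the 9 genes was, and 1068, 2089, 3174, 362 and 668 of all genes were. The labels do not say that a number marks a shared culture or batch, and 4 of 18 same-numbered pairs had an r of deviations over 0.1 (range -0.13 to 0.18), so the libraries were not treated as paired. As a hint from the data, 10 of 12 libraries correlated best with their own number, and all 9 same-numbered pairs among D2, D4 and D6 were positive (0.032 to 0.18) while 12 of the 18 other pairs among these days were negative.

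Values that turned sign had not passed the test. Leaving out 1 library, values at D4 against D2 ran from -0.21 to 0.19 for Cyp26a1, -0.18 to 0.71 for Rarb and -0.44 to 0.22 for Stra6, and at D6 against D4 from -0.11 to 0.43 for Rara. Cyp26a1 at D4 against D2 was 0.0073 with all nuclear classes, 0.32 thinned and 0.032 with a barcode confidence of at least 0.75, and Rara was -0.19 thinned. Leaving out 1 library, Crabp2 tail changes ran from -0.058 to 0.031 at D2 and -0.064 to 0.024 at D4 against D0, -0.035 to 0.012 at D4 against D2 and -0.15 to 0.013 at D6 against D4, and Dhrs3 ones from -0.18 to 0.27 at D6 against D4. The cause was not tested. The barcode confidence limit, the exclusion of pseudogenes and mitochondrial genes, the share of tails of 30 to 90 nt by limma and the tail comparisons between treated days were chosen after seeing the data.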
